A study of Mus musculus with 39 samples.

Results

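ATP-binding cassette (ABC) proteins were followed in the interscapular brown fat of male mice, the depot between the shoulder blades that burns fuel to make heat. Gene entries with a symbol of the form Abca to Abcg plus a number were taken, 50 in all. Of these, 38 had a mean normalised count of at least 10 over the 16 RNA libraries and are the members described here, out of 24116 gene entries in the table and 13176 genes that passed the same minimum. The 12 left out ranged up to Abcc2 at a mean of 8.42, and the lowest member kept was Abcg4 at 13.6. The members comprised 11 of subfamily A, 8 of B, 7 of C, 4 of D, 1 of E, 3 of F and 4 of G.

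ABC transporters are membrane proteins that bind and split ATP to move lipids, sterols, acyl-CoAs, peptides, heme-related molecules, drugs and conjugates across a membrane. A few relatives are not known to move a substrate across a membrane. They act in translation (Abce1 and the Abcf proteins) or as regulatory subunits of potassium channels (Abcc8 and Abcc9). In brown fat the family serves, among other things, entry of acyl-CoAs into peroxisomes, iron and heme handling in mitochondria, and export of cholesterol from fat cells and resident macrophages.

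The libraries fell into 4 groups of 4. Cre-labelled animals carried floxed Bcl6 alleles and a Cre recombinase driven by the Ucp1 promoter, and were housed at 30 °C or at 22 °C. Controls carried the floxed alleles without Cre, on the same C57BL/6J background, and were housed at the same 2 temperatures. For mice 30 °C is close to thermoneutral, and 22 °C is a mild cold load that keeps brown fat active. The Ucp1 promoter is active in brown adipocytes, so vascular, immune and stromal cells of the whole tissue are not meant to recombine. The sources used here give no ages. Bcl6 encodes a transcriptional repressor. The study asks what it does in brown fat at the 2 temperatures.

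Bcl6 RNA was higher in the libraries labelled as Cre-positive, at 4466 ± 853 against 1847 ± 608 in controls at 30 °C and 3305 ± 514 against 1079 ± 509.9 in controls at 22 °C (normalised counts, SD, n = 4 each). Which part of Bcl6 was floxed is not stated, so a gene-level value checks neither its loss nor the labels, and the groups are called Cre-labelled and control. Totals of the deposited normalised counts were 8867615 to 13516936 per library, and 14311 to 16849 genes were above 0. The fewest were in control library 1 at 22 °C and the next fewest, 15226, in Cre-labelled library 2 at 22 °C. Brown adipocyte markers were abundant in all libraries, with summed levels of 29408 to 34816 in Cre-labelled and 52099 to 58210 in control libraries at 30 °C, and 79799 to 136476 in Cre-labelled and 126751 to 189287 in control libraries at 22 °C. Summed levels of 18 macrophage markers were 7556 to 20993 in Cre-labelled and 4397 to 5567 in control libraries at 30 °C, and 2635 to 3708 in Cre-labelled and 1551 to 2598 in control libraries at 22 °C, and no marker was at 0 in all libraries. Summed levels of 20 skeletal muscle markers were uneven, at 1214 to 36918 and 13361 to 22841 in the same groups at 30 °C, and 2471 to 43269 and 2991 to 7478 at 22 °C. In whole tissue, fewer cells of a type and less RNA per cell cannot be told apart. The labels do not say whether each library is its own animal, and p-values then measure the spread between these libraries.

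The sequences before the transcription starts of 4 members are shown because many of the results below turn on Abca1, Abca2 and Abcd3, and because Abcc5 was the only member with a match to the BCL6 core. RefSeq promoters of assembly GRCm38.p6 were found for 27 of the 38 members (33 promoters). Each was read over the 250 bases before its start on both strands for TTCCNNGAA, the core bound by BCL6, and for TCAAGGTCA, the site of estrogen-related receptors. Bases that lie inside the gene's RefSeq limits through another start were left out of the print. Capitals mark the match.
Abca1, chr4:53159989-53160145, minus strand: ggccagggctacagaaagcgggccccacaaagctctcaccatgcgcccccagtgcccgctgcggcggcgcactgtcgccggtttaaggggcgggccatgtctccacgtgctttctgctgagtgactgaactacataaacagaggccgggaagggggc
Abca2, chr2:25428349-25428598, plus strand: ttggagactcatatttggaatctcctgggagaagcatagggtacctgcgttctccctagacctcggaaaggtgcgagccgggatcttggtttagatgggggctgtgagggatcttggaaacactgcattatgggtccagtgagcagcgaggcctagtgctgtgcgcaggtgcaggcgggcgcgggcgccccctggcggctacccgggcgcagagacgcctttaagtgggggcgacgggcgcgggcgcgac
Abcd3, chr3:121815303-121815552, minus strand: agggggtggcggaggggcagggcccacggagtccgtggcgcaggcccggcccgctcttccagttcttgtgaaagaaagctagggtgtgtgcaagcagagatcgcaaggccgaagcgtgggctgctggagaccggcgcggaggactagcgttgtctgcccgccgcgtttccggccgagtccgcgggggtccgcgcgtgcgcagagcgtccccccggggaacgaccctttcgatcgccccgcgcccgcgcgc
Abcc5, chr16:20426429-20426644, minus strand: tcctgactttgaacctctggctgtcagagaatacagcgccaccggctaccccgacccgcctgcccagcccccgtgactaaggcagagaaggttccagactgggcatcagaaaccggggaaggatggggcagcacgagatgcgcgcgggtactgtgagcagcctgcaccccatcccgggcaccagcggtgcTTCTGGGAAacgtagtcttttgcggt

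The BCL6 core was matched in 1 member, Abcc5, 60 bases before its start, against 4.06% of all 32851 promoters in the table. The estrogen-related receptor motif was matched in 1 member, Abcc10, 166 bases before one of its starts, against 0.387% of all promoters. The Abca2 and Abcd3 stretches hold 20 and 34 CpG pairs, with a GC share of 63.2% and 72.0%, and neither motif. A direct repeat bound by liver X receptors (LXR), the sterol sensors known to drive Abca1, was added after the Abca1 sequence had been read. Searched as TGACC, any 5 bases and TAACC, it was matched in 0.0457% of all promoters and in 1 member, Abca1, as TGACCGGTAGTAACC at chr4:53159948-53159962 (minus strand), 67 bases before a start. The fixed letters searched for are those found in Abca1, so that match was given in advance. The share over all promoters therefore does not measure how unusual the Abca1 match is. These are matches of letters, and whether a factor bound there was not measured in these promoters.

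Between the Cre label and the controls, few members differed. At 30 °C, Abca1 and Abcg3 were higher in Cre-labelled fat, and Abca2, Abcb8, Abcc8 and Abcd3 were lower. These 6 members were 15.8% of the family, against 12.5% of the 13176 genes tested, of which 5.65% were higher and 6.85% lower (limma on log2 of the normalised count plus 1, adjusted p under 0.05 over all genes). At 22 °C, Abca4, Abcc3 and Abcg4 were higher in Cre-labelled fat, and Abca2 and Abcd3 were lower, 13.2% of the family against 10.2% of all genes (5.51% higher, 4.69% lower). Both shares stood close to those of all genes. The members' median log2 difference was 0.05 at 30 °C and 0.10 at 22 °C, against 0.01 and 0.00 over all genes tested. Groups did not overlap in 9 of 38 members at each temperature, against 22.9% of all genes at 30 °C and 12.4% at 22 °C. The count at 22 °C was the less stable one. It was 8 without control library 1 of that temperature, 3 without Cre-labelled library 1 or 4 or control library 2 or 3, 2 without Cre-labelled library 3, and 11 without the 2 libraries with the fewest genes above 0. The calls of Abca2, Abca4, Abcc3 and Abcd3 at 22 °C each ended with quantile normalization, with the 2 groups fitted alone and with the macrophage score. With each library rescaled to the same total the count at 22 °C became 6 higher and 1 lower. The macrophage markers moved with the label, 15 of 18 higher in Cre-labelled fat at 30 °C, and 8 higher and 1 lower at 22 °C. With their score in the model 2 members passed at 30 °C, Abca1 and Abca2, with Abca2 at -0.85 (adjusted p = 0.0335); Abcd3 stood at -0.26 (adjusted p = 0.62), Abcb8 at -0.72 (adjusted p = 0.102) and Abcc8 at -2.01 (adjusted p = 0.178). The score overlapped neither between labels at 30 °C nor between temperatures within a label, so it cannot be told apart from the groups, whether a difference stayed or went.

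More members differed by housing temperature. In Cre-labelled fat, 8 members were higher and 9 lower at 30 °C than at 22 °C, 44.7% of members against 32.7% of all genes tested (15.0% higher, 17.7% lower). In controls, 10 were higher and 12 lower, 57.9% against 45.5% (22.9% higher, 22.7% lower). Whether these shares differ from those of all genes was not tested. The members' median log2 difference was -0.20 in Cre-labelled libraries and 0.00 in controls, against 0.02 and 0.04 over all genes. Groups did not overlap in 17 members in Cre-labelled libraries, against 34.5% of all genes, and in 15 in controls, against 41.2%. In both comparisons Abca3, Abca8a, Abca8b, Abca9, Abcc1, Abcg1 and Abcg3 were higher at 30 °C, 7 in all, and Abca7, Abcb8, Abcb9, Abcb10, Abcd2 and Abcd3 were lower, 6 in all. Over the 4 comparisons 11 members passed in none, 9 in 1, 14 in 2, 3 in 3, and Abcd3 in all 4. The direction of the smaller differences depends on scaling: with each library rescaled to the same total the median of all genes moved to 0.308 in Cre-labelled libraries and 0.429 in controls. The members then split 10 higher and 5 lower in Cre-labelled libraries, and 17 higher and 3 lower in controls. Rescaling ended the lower calls of Abca7, Abcb10, Abcd2 and Abcf1 in Cre-labelled libraries and of Abca7, Abca12, Abcb8, Abcb10, Abcc4, Abcd2, Abcd4, Abcf2 and Abcf3 in controls. Cell type markers moved with temperature as well: 17 of 18 macrophage markers were higher at 30 °C in Cre-labelled libraries and 16 in controls, and 9 of 20 skeletal muscle markers were higher in controls. With the macrophage score in the model 0 members passed in Cre-labelled libraries and 8 in controls. With the muscle score the calls of Abca3 and Abca5 ended in Cre-labelled libraries, and those of Abca7, Abca8a, Abcc1, Abcc8 and Abcg1 in controls. Quantile normalization ended those of Abca5 and Abcf1 in Cre-labelled libraries and of Abca7, Abcc3, Abcc8, Abcd2, Abcf3, Abcg1, Abcg3 and Abcg4 in controls.

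**Figure D1:**
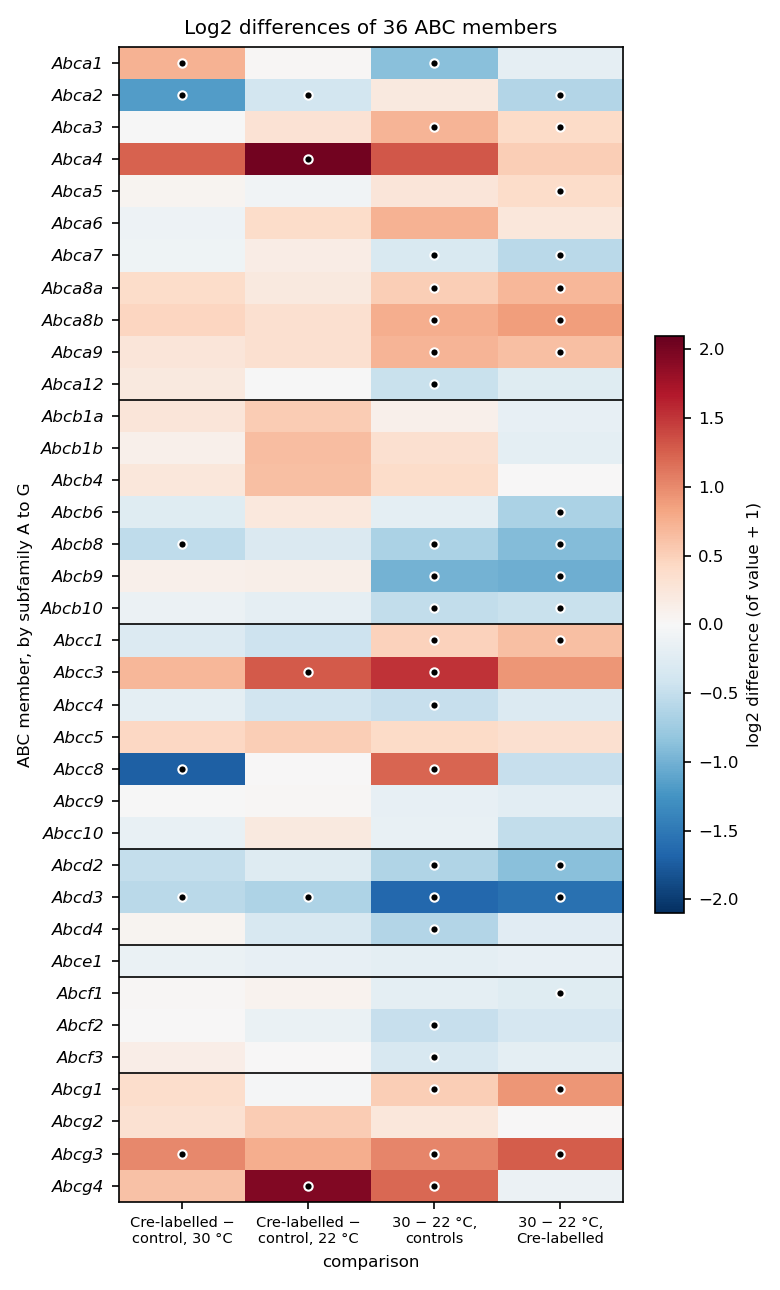
Log2 differences of 36 members, in rows by subfamily, in the 4 comparisons, in columns; red is higher in the group named first and a dot marks an adjusted p under 0.05. Dots are few in the 2 genotype columns (6 and 5) and frequent in the 2 temperature columns (22 and 17), and Abcd3 has a dot in all 4.

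The peroxisomal half-transporters belong to subfamily D. Abcd3, which brings long and branched acyl-CoAs into peroxisomes, was the one member past the threshold in all 4 comparisons. Its normalised counts were 1482, 1901, 1701 and 1789.7 in Cre-labelled libraries at 30 °C, against 2515, 3313, 2241 and 2217 in controls. At 22 °C they were 4776, 5461, 4448 and 5752 in Cre-labelled libraries, against 6759, 9186, 9765 and 6722 in controls. Every Cre-labelled library lay below every control of its temperature, and every 30 °C library below every 22 °C library. Group means were 1719 ± 178 in Cre-labelled and 2571 ± 513 in control libraries at 30 °C, and 5109 ± 601 and 8108 ± 1597 at 22 °C (SD, n = 4 each). On the log2 scale Abcd3 fell by 0.57 in Cre-labelled fat at 30 °C (SE 0.15, limma adjusted p = 0.0216) and by 0.65 at 22 °C (SE 0.15, adjusted p = 0.0122). At 30 °C relative to 22 °C it fell by 1.57 in Cre-labelled libraries (2.97-fold lower, adjusted p = 4.43e-06) and by 1.65 in controls (3.15-fold lower, adjusted p = 9.69e-07). The interaction of label and temperature was 0.09 (SE 0.22, adjusted p = 0.933). The genotype call at 30 °C was lost without Cre-labelled library 1 or without control library 1 or 2, with adjusted p up to 0.0775. Over all 16 fits that left out 1 library its log2 difference lay between -0.63 and -0.44. The call at 22 °C was lost with quantile normalization (-0.40, adjusted p = 0.118), with its 2 groups fitted alone (adjusted p = 0.0564) and with the macrophage score (-0.46, adjusted p = 0.177), and the temperature call in Cre-labelled libraries with the macrophage score (-1.09, adjusted p = 0.125).

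Abcd2, which carries very long acyl-CoAs, followed temperature too. It averaged 531 ± 178 in Cre-labelled and 715 ± 64.4 in control libraries at 30 °C, and 939 ± 216 and 1120.4 ± 192 at 22 °C. The log2 difference between 30 and 22 °C was -0.87 in Cre-labelled libraries (adjusted p = 0.00678) and -0.63 in controls (adjusted p = 0.0289), and the call in controls was lost without control library 3 or 4 of either temperature (adjusted p up to 0.078). Abcd4, which releases vitamin B12 from lysosomes, measured 427, 391, 461 and 371 in Cre-labelled and 496, 378, 373 and 361 in control libraries at 30 °C. At 22 °C it measured 486, 556, 430.3 and 464 in Cre-labelled and 683, 592, 644 and 522 in control libraries. In Cre-labelled libraries the temperature groups overlapped and differed by -0.23 (adjusted p = 0.174). The control groups did not overlap, and Abcd4 was lower at 30 °C there, at -0.61 on the log2 scale (limma SE 0.12, adjusted p = 0.001). That call was lost with rescaling to the same total (-0.21, adjusted p = 0.106) and with the macrophage score (adjusted p = 0.0591). The test of the difference between labels gave an adjusted p of 0.472.

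Some of the genes that build and run peroxisomes were lower in the same comparisons as Abcd3. Of 16 peroxisome biogenesis genes, 6 were lower in Cre-labelled fat at 30 °C and 4 at 22 °C, and 12 were lower at 30 than at 22 °C in Cre-labelled libraries and 10 in controls, with none higher in any of the 4 comparisons. Their median log2 differences were -0.34, -0.30, -0.55 and -0.55, against 0.01, 0.00, 0.02 and 0.04 over all genes tested. Of all genes, 6.85%, 4.69%, 17.7% and 22.7% were lower in these comparisons. Rescaling to the same total moved the all-gene median between temperatures to 0.308 in Cre-labelled libraries and 0.429 in controls. Its effect on this and the other gene lists is not reported here. Pex2, part of the peroxisomal ubiquitin ligase, fell to 383 ± 66.7 in Cre-labelled libraries at 30 °C, against 949.8 ± 208 in controls (log2 difference -1.29, adjusted p = 0.00103). Pex16, needed for insertion of peroxisomal membrane proteins, fell to 437 ± 53.5 in controls at 30 °C, against 1562 ± 302 at 22 °C (-1.82, adjusted p = 1.58e-07). Of 18 peroxisomal oxidation genes, 9 were lower and 1 higher in Cre-labelled fat at 30 °C, and 8 were lower at 22 °C. At 30 °C relative to 22 °C, 14 were lower in Cre-labelled libraries and 15 in controls. The thiolase Acaa1b had means of 51.2 in Cre-labelled and 163 in control libraries at 30 °C, and 207 and 1238 at 22 °C. The thioesterase Acot4 was the exception, with a log2 difference of 2.65 between Cre-labelled and control libraries at 30 °C (adjusted p = 0.00052). Brown adipocyte markers moved the same way as these groups, 4 of 12 lower in Cre-labelled libraries at 30 °C, 3 at 22 °C, and at 30 °C 8 lower in Cre-labelled libraries and 8 lower and 1 higher in controls. Their part in these differences was not tested.

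**Figure D2:**
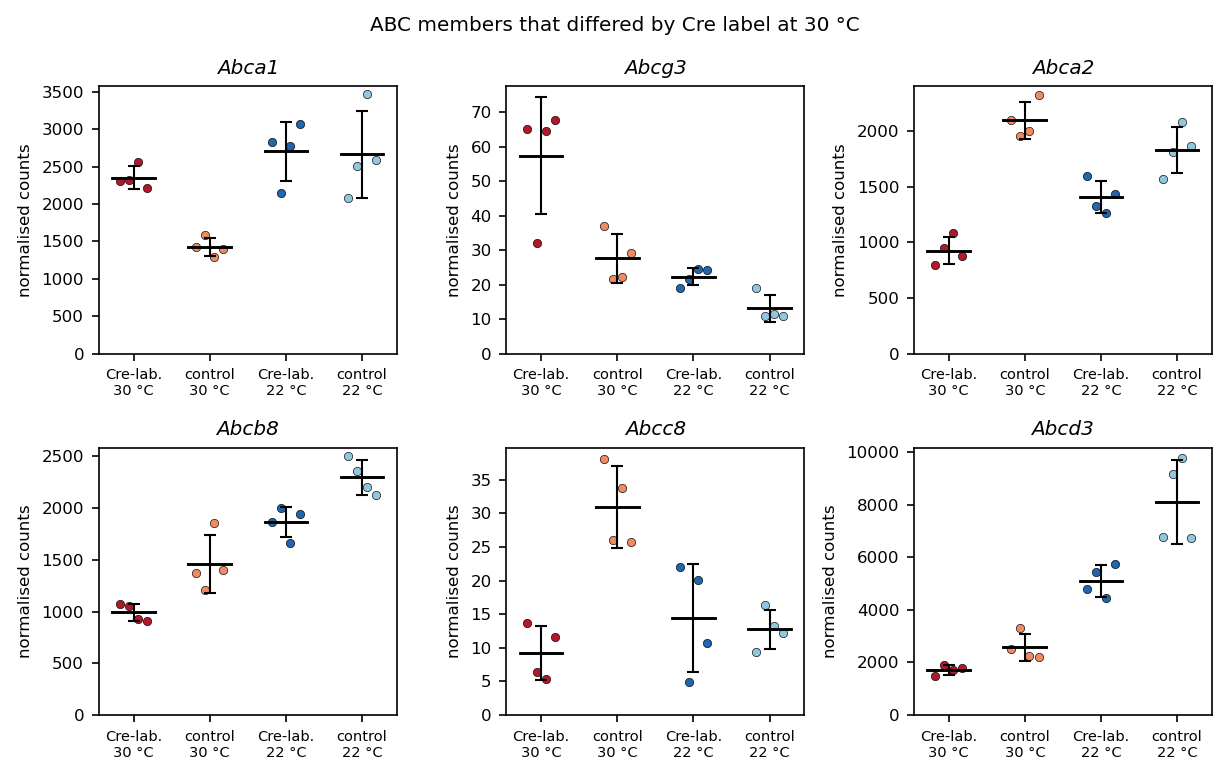
Normalised counts per library (points), group mean and SD (bars) for the 6 members that differed by Cre label at 30 °C, each panel from 0. Abca1 and Abcg3 lie higher in the Cre-labelled 30 °C group than in its controls, and Abca2, Abcb8, Abcc8 and Abcd3 lower; Abcd3 also separates the 2 temperatures.

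Sterol and phospholipid exporters split. Abca1, which hands cholesterol and phospholipid to apolipoprotein A-I, measured 2309.6, 2320.1, 2567 and 2212 in Cre-labelled libraries at 30 °C, against 1426, 1580.0, 1288 and 1402 in controls. At 22 °C it measured 2829, 2141, 2775 and 3068 in Cre-labelled and 2080.2, 2510.1, 3469 and 2589 in control libraries. Only the 30 °C controls stood apart, below all libraries of the other 3 groups. Abca1 was thus 1.65-fold higher in Cre-labelled fat at 30 °C (log2 difference 0.73, SE 0.14, limma adjusted p = 0.00254) and at 0.03 at 22 °C (adjusted p = 0.907). Between 30 and 22 °C the difference was -0.19 in Cre-labelled libraries (adjusted p = 0.317), and Abca1 fell by 0.88 in controls (adjusted p = 0.000124). The interaction, 0.69 (SE 0.20), gave an adjusted p of 0.174, so the genotype differences at the 2 temperatures were not told apart. Macrophage markers were higher in Cre-labelled fat at 30 °C in 15 of 18 genes, and with their score in the model the Abca1 difference was 1.24 (adjusted p = 0.00695). The score ran from 0.87 to 1.78 in Cre-labelled libraries, against 0.07 to 0.37 in controls, so that model cannot tell the score and the label apart. The difference between temperatures in controls was -0.27 with the score (adjusted p = 0.438).

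Abcg1, which passes cholesterol to mature high-density lipoprotein, measured 247, 203, 202 and 328 in Cre-labelled and 164, 168, 173 and 247 in control libraries at 30 °C. At 22 °C it measured 149.9, 100.1, 132 and 126 in Cre-labelled and 173, 125, 105 and 120.2 in control libraries. The Cre-labelled groups did not overlap between temperatures and the controls did. Abcg1 was higher at 30 °C by 0.93 in Cre-labelled libraries (SE 0.19, adjusted p = 0.00165) and by 0.52 in controls (SE 0.19, adjusted p = 0.0366). In controls the call was lost without library 3 or 4 at 30 °C or library 2, 3 or 4 at 22 °C (adjusted p up to 0.13). Of 18 macrophage markers, 17 were higher at 30 °C in Cre-labelled libraries and 16 in controls. With the macrophage score in the model the Abcg1 differences were -0.04 in Cre-labelled libraries (adjusted p = 0.961) and -0.21 in controls (adjusted p = 0.703).

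Of 17 genes around sterol export, 2 were higher and none lower in Cre-labelled fat at 30 °C, and 2 were higher and 3 lower at 22 °C. The 2 at 30 °C were Soat1, which esterifies cholesterol for storage, at 191 ± 93.1 in Cre-labelled and 55.4 ± 2.98 in control libraries (adjusted p = 0.00103), and Pltp, a phospholipid transfer protein, at 976 ± 28.2 and 686 ± 63.6 (adjusted p = 0.00415). Over all genes tested, 5.65% were higher and 6.85% lower between labels at 30 °C, and 5.51% and 4.69% at 22 °C. Between 30 and 22 °C, 4 of the 17 genes were higher and 5 lower in Cre-labelled libraries, and 3 higher and 10 lower in controls. Over all genes, 15.0% were higher and 17.7% lower in Cre-labelled libraries, and 22.9% and 22.7% in controls. The list's median log2 differences were -0.15 and -0.45. Rescaling to the same total moved the all-gene medians between temperatures to 0.308 and 0.429, and its effect on this list is not reported here. Nr1h3, which encodes the sterol sensor LXR alpha, fell by 0.80 in Cre-labelled libraries (adjusted p = 0.000129) and by 1.24 in controls (adjusted p = 1.48e-06). Pltp also differed between labels in its response, with an interaction of 0.82 (SE 0.15, adjusted p = 0.0223): the difference between temperatures was 0.06 in Cre-labelled libraries (adjusted p = 0.726), and it fell by 0.76 at 30 °C in controls. Like Abca1, Pltp had its lowest group mean in the controls at 30 °C.

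Abca2, a lipid transporter of endosomes and lysosomes best known from brain, had the smallest adjusted p of any member for the Cre label. It measured 794, 948, 1088 and 876 in Cre-labelled libraries at 30 °C, against 2099.6, 1959.7, 2003 and 2329 in controls. At 22 °C the values were 1595, 1331, 1268 and 1432 in Cre-labelled and 1567, 1811, 2079 and 1863 in control libraries. The 30 °C groups lay far apart, and at 22 °C only Cre-labelled library 1 and control library 1 crossed. The difference was 2.27-fold lower in Cre-labelled fat at 30 °C (log2 -1.18, SE 0.12, limma adjusted p = 5.05e-06) and -0.38 at 22 °C (SE 0.12, adjusted p = 0.0458). The 22 °C call was kept only without Cre-labelled library 1 of either temperature, Cre-labelled library 3 at 30 °C or control library 1 at 22 °C. It was lost in the other 12 fits that left out 1 library. Over all 16 such fits the log2 difference lay between -0.45 and -0.31. Abca2 was lower at 30 than at 22 °C in Cre-labelled libraries (-0.61, SE 0.12, adjusted p = 0.000822), and the difference was 0.20 in controls (adjusted p = 0.163). It was the only member whose interaction passed, at -0.81 (SE 0.16, adjusted p = 0.0363), 1 of 38 or 2.63% against 0.440% of all genes tested (0.175% higher, 0.266% lower). No member passed without library 1, 2 or 4 of the Cre-labelled 30 °C group, 1, 3 or 4 of the 30 °C controls, 1 or 4 of the Cre-labelled 22 °C group, or 2 or 4 of the 22 °C controls. Over all 16 fits that left out 1 library the interaction of Abca2 lay between -0.89 and -0.73, with adjusted p up to 0.0931. Without the 2 libraries with the fewest genes, 2 members passed, Abca1 and Abca2.

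Abca7, which moves lipids and takes part in phagocytosis, measured 397, 369, 509.7 and 451 in Cre-labelled and 416, 418, 554 and 452 in control libraries at 30 °C. At 22 °C it measured 645, 608, 624 and 678 in Cre-labelled and 605, 574, 528 and 587 in control libraries. It was lower at 30 °C by 0.57 in Cre-labelled libraries, without overlap (SE 0.11, adjusted p = 0.00118). In controls the groups overlapped through library 3 at 30 °C, and the fall of 0.32 (adjusted p = 0.029) was lost without control library 1, 2 or 4 at 30 °C or 1 or 4 at 22 °C (adjusted p up to 0.086). Rescaled to the same total, the difference in controls was 0.07 (adjusted p = 0.654). Abca3, which loads lung surfactant lipids into lamellar bodies, measured 973, 778, 978 and 810.2 in Cre-labelled and 1053, 765, 868 and 892 in control libraries at 30 °C. At 22 °C it measured 742, 516, 785 and 655 in Cre-labelled and 429, 647, 534 and 580.2 in control libraries. In Cre-labelled libraries it was higher at 30 °C by 0.40, with an adjusted p of 0.0497. In controls it was higher by 0.71, and groups did not overlap (SE 0.15, adjusted p = 0.0012). The call in Cre-labelled libraries was lost without Cre-labelled library 1, 3 or 4 or control library 2, 3 or 4 at 30 °C, and without Cre-labelled library 2 or 4 or control library 3 or 4 at 22 °C (adjusted p up to 0.169).

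Several neighbouring genes of subfamily A on chromosome 11 were higher at 30 °C. Abca8b, Abca8a, Abca9, Abca6 and Abca5 lie in that order at 109932206 to 110337723 (GRCm38.p6). Abca8b measured 249, 275, 321 and 215 in Cre-labelled and 200.5, 227, 233 and 129.8 in control libraries at 30 °C. At 22 °C it measured 168, 109, 163 and 141 in Cre-labelled and 119.6, 116, 111 and 106 in control libraries. Within each label all 30 °C libraries lay above all 22 °C libraries, with a log2 difference of 0.87 in Cre-labelled (SE 0.18, adjusted p = 0.00179) and 0.76 in control libraries (SE 0.18, adjusted p = 0.00317). Abca8a was higher by 0.69 (adjusted p = 0.00326) and 0.51 (adjusted p = 0.0149) in the same groups, the control call lost without control library 2 at 30 °C (adjusted p = 0.0553). Abca9 was higher by 0.63 (adjusted p = 0.00602) and 0.72 (adjusted p = 0.00186). Abca5 was higher by 0.38 in Cre-labelled libraries (adjusted p = 0.0487), a call kept only without control library 3 at 30 °C or control library 1 at 22 °C and otherwise at an adjusted p up to 0.13. Abca6 did not pass, at 0.24 and 0.73 (adjusted p = 0.619 and 0.0818). Abca8a and Abca8b are close copies, so the reads counted for each are uncertain. Adipocyte progenitor markers also rose, 6 of 10 at 30 °C within each label, with sums of 16465 to 18851 in Cre-labelled and 14062 to 15731 in control libraries at 30 °C, and 8600 to 10408 and 6954 to 8358 at 22 °C. Their part in the result was not tested.

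**Figure D3:**
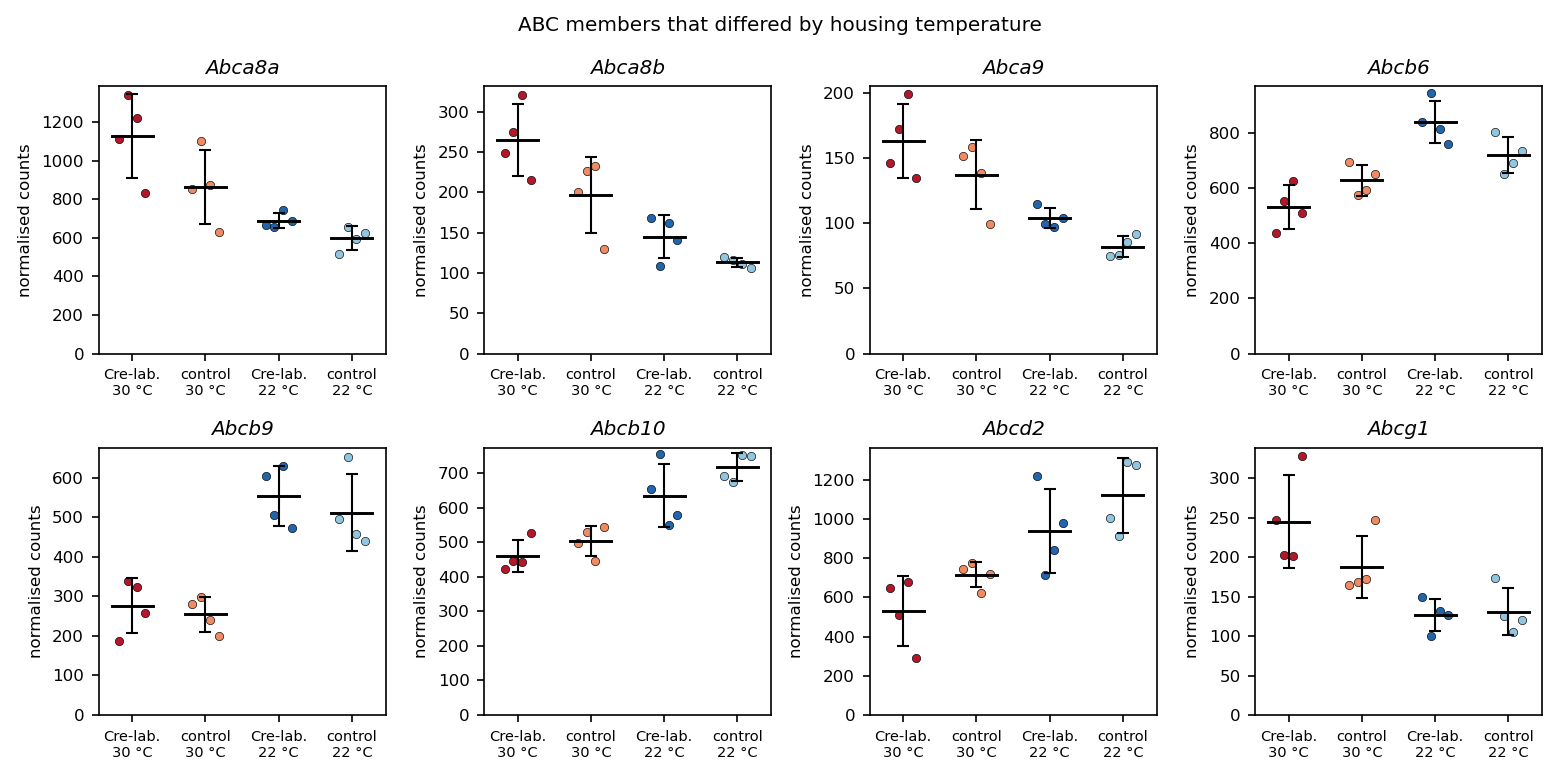
Normalised counts per library (points), group mean and SD (bars) for 8 members that differed by housing temperature, each panel from 0. Abca8a, Abca8b, Abca9 and Abcg1 lie higher at 30 °C and Abcb9, Abcb10 and Abcd2 lower in both labels; Abcb6 passed in the Cre-labelled libraries alone.

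Mitochondrial members of subfamily B were lower at 30 °C. Abcb8, an inner membrane protein linked to iron export, measured 1075, 1053, 927 and 913 in Cre-labelled libraries at 30 °C, against 1373, 1206, 1859 and 1398 in controls. At 22 °C it measured 1863, 1997, 1664 and 1946 in Cre-labelled and 2504, 2360.1, 2199 and 2126 in control libraries. Cre-labelled libraries lay below controls at both temperatures without overlap. The log2 difference was -0.54 at 30 °C (SE 0.12, limma adjusted p = 0.00655) and -0.30 at 22 °C (SE 0.12, adjusted p = 0.122). Temperature lowered it by 0.91 in Cre-labelled libraries (adjusted p = 4.57e-05) and by 0.67 in controls (adjusted p = 0.000326). Rescaled to the same total, the difference in controls was -0.28 (adjusted p = 0.0676).

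Abcb10, which supports heme synthesis in the inner membrane, measured 423, 446, 443 and 527 in Cre-labelled and 498, 531, 445 and 543 in control libraries at 30 °C. At 22 °C it measured 654, 755, 550.1 and 579.8 in Cre-labelled and 693, 675, 754 and 749 in control libraries. Neither label overlapped between temperatures, with falls of 0.46 in Cre-labelled (SE 0.11, adjusted p = 0.00454) and 0.51 in control libraries (SE 0.11, adjusted p = 0.00152). Both calls were lost with rescaling to the same total, at -0.17 (adjusted p = 0.151) and -0.12 (adjusted p = 0.295). Abcb6, a porphyrin transporter, measured 436, 554, 628 and 510.0 in Cre-labelled and 695, 575, 593 and 652 in control libraries at 30 °C. At 22 °C it measured 841, 947, 815 and 762 in Cre-labelled and 804, 654, 692 and 736 in control libraries. Temperature lowered it by 0.67 in Cre-labelled libraries (SE 0.12, adjusted p = 0.000424), and the difference was -0.20 in controls (adjusted p = 0.173). The difference between labels in that response was -0.47 (adjusted p = 0.292).

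Of 26 heme and iron-sulfur genes, 3 were lower in Cre-labelled fat at 30 °C and 5 at 22 °C, with none higher. Over all genes tested, 6.85% and 4.69% were lower. At 30 °C relative to 22 °C, 16 were lower and 1 higher in Cre-labelled libraries, and 18 lower and 1 higher in controls. Over all genes, 17.7% and 22.7% were lower. The list's median log2 differences were -0.54 and -0.51, against 0.02 and 0.04 over all genes. Rescaling to the same total moved the all-gene medians to 0.308 and 0.429, and its effect on this list is not reported here. Among those named by the smallest adjusted p, Uros, an enzyme of the porphyrin ring, fell by 0.66 in Cre-labelled libraries (adjusted p = 6.85e-05) and by 0.84 in controls (adjusted p = 3.94e-06). Iba57, an assembly factor of mitochondrial iron-sulfur clusters, fell by 0.91 in Cre-labelled libraries (adjusted p = 0.00013) and by 1.13 in controls (adjusted p = 1.15e-05).

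Abcb9, a lysosomal peptide transporter, was lower at 30 °C in both labels. It measured 188, 338, 324 and 257 in Cre-labelled and 281, 298, 240.3 and 199 in control libraries at 30 °C. At 22 °C it measured 605, 506, 629.9 and 473 in Cre-labelled and 495, 653, 458 and 439 in control libraries. No 30 °C library reached the lowest 22 °C library. The log2 difference was -1.02 in Cre-labelled (SE 0.19, adjusted p = 0.00057) and -1.0 in control libraries (SE 0.19, adjusted p = 0.000441). Tap1 and Tap2, ABC genes under other symbols that form the peptide transporter of the endoplasmic reticulum, were measured alongside. Tap1 was higher at 30 °C in controls by 0.79 (adjusted p = 0.00526), and Tap2 passed in no comparison, with log2 differences between -0.12 and 0.26. Of 15 antigen peptide loading genes, 2 were higher in Cre-labelled fat at each temperature, and at 30 °C 4 were higher in Cre-labelled libraries and 4 higher and 1 lower in controls. Over all genes tested, 5.65% and 5.51% were higher in Cre-labelled fat at 30 and 22 °C. At 30 °C relative to 22 °C, 15.0% were higher in Cre-labelled libraries, and 22.9% were higher and 22.7% lower in controls. Cftr, the third ABC gene under another symbol, was listed at 0 in all libraries.

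**Figure D4:**
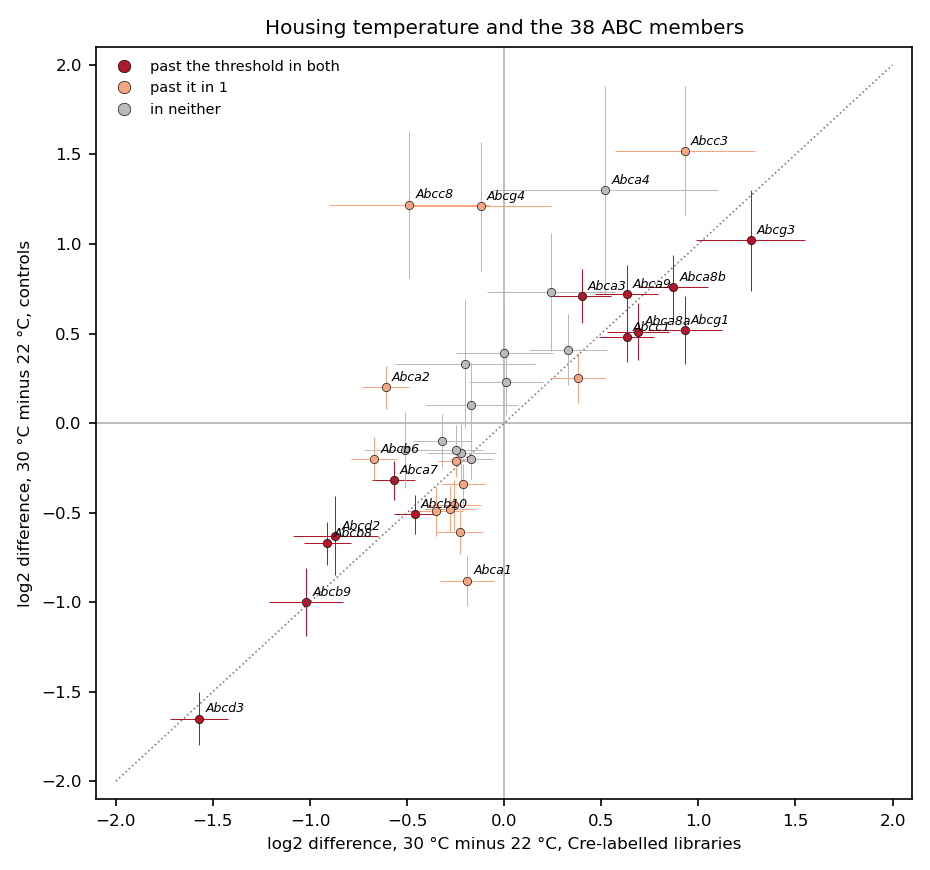
Log2 differences between 30 and 22 °C in Cre-labelled libraries (x axis) and in controls (y axis) for the 38 members, with SE bars; the dotted line marks equal differences. Members past the threshold in both, in red, are on the same side of 0 on both axes, with Abcd3 at -1.57 and -1.65 the lowest; Abca1, Abca2 and Abcc8 lie off the line.

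Sulfonylurea receptors, the ABC subunits that open and close ATP-sensitive potassium channels, differed from each other. Abcc8 averaged 9.24 ± 4.05 in Cre-labelled libraries at 30 °C, range 5.29 to 13.7, against 31.0 ± 6.04 in controls, range 25.8 to 38.1. At 22 °C it averaged 14.4 ± 8.05 in Cre-labelled and 12.8 ± 2.87 in control libraries. The 30 °C controls alone stood high, without overlap with any other group. Abcc8 was lower in Cre-labelled fat at 30 °C (log2 -1.71, SE 0.41, limma adjusted p = 0.0106) and higher at 30 than at 22 °C in controls (1.22, SE 0.41, adjusted p = 0.0222). The call in controls was lost without control library 1 or 3 at 30 °C or control library 1 at 22 °C (adjusted p up to 0.0615), and the interaction was -1.71 (adjusted p = 0.275). These levels lie near the minimum of 10, and log2 differences with a pseudocount understate such genes. Kcnj11, the pore subunit that pairs with Abcc8, showed the same order: 59.5 ± 34.1 in Cre-labelled and 224 ± 21.4 in control libraries at 30 °C, and 89.3 ± 31.7 and 64.0 ± 18.8 at 22 °C. Kcnj11 fell by 2.06 on the log2 scale in Cre-labelled fat at 30 °C (adjusted p = 0.000786), and its interaction was -2.50 (SE 0.48, adjusted p = 0.029). Abcc9, the other receptor, averaged 1111 to 1299 in the 4 groups and its pore partner Kcnj8 438 to 636, and neither passed in any comparison. Kcnj11 is also a muscle gene: 9 of 20 skeletal muscle markers were higher at 30 °C in controls and 1 was lower in Cre-labelled fat at 30 °C. With the muscle score in the model the Abcc8 difference between labels at 30 °C was -1.71 (adjusted p = 0.0161) and that between temperatures in controls 1.23 (adjusted p = 0.0571). With the macrophage score these were -2.01 (adjusted p = 0.178) and 0.86 (adjusted p = 0.488).

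Among the exporters of drugs, conjugates and signalling molecules, Abcc3 alone passed between Cre-labelled and control libraries. Abcc1, which exports glutathione conjugates and leukotrienes, was higher at 30 °C, at 699 ± 31.3 against 458 ± 87.0 at 22 °C in Cre-labelled (log2 0.63, adjusted p = 0.00207) and 852 ± 85.6 against 614 ± 85.6 in control libraries (0.48, adjusted p = 0.00902). With the muscle score the difference in controls was 0.37 (adjusted p = 0.0692). Abcc3, an exporter of glucuronides and bile acids, averaged 41.1 ± 17.6 in Cre-labelled and 23.5 ± 4.58 in control libraries at 30 °C, and 19.6 ± 1.45 and 8.31 ± 4.88 at 22 °C. It was higher in Cre-labelled fat at 22 °C (1.29, adjusted p = 0.0317) and at 30 °C in controls (1.52, adjusted p = 0.00291). The first of these calls was lost without Cre-labelled library 1, 3 or 4 or control library 1 or 2 at 22 °C (adjusted p up to 0.0811). Abcc4, which exports cyclic nucleotides and prostanoids, was lower at 30 °C in controls, at 432 ± 62.0 against 603 ± 76.5 at 22 °C (-0.48, adjusted p = 0.00778), but stood at -0.09 with rescaling to the same total (adjusted p = 0.628) and at -0.14 with the macrophage score (adjusted p = 0.726). Abcc5, Abcc10, the P-glycoproteins Abcb1a and Abcb1b, the phosphatidylcholine flippase Abcb4 and the urate and drug exporter Abcg2 passed in no comparison. Abcb1a and Abcb1b are close copies and share reads, and Abcb1b ranged from 163 to 497 over the 16 libraries. Of 16 glutathione and oxidant-defence genes, 2 were higher and 1 lower in Cre-labelled fat at 30 °C, 1 and 1 at 22 °C, and at 30 °C 3 were higher and 3 lower in Cre-labelled libraries and 2 higher and 6 lower in controls. Over all genes tested, 5.65% were higher and 6.85% lower in Cre-labelled fat at 30 °C, and 5.51% and 4.69% at 22 °C. At 30 °C relative to 22 °C, 15.0% were higher and 17.7% lower in Cre-labelled libraries, and 22.9% and 22.7% in controls.

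Among the remaining members of subfamilies A and G, 3 that are low in this tissue passed between labels, Abcg3 at 30 °C and Abcg4 and Abca4 at 22 °C. Their interactions did not pass, at 0.25 for Abcg3 (adjusted p = 0.877), -1.33 for Abcg4 (adjusted p = 0.342) and -0.79 for Abca4 (adjusted p = 0.794), so no difference between the temperatures was shown. Abcg3 averaged 57.4 ± 16.9 in Cre-labelled and 27.6 ± 7.19 in control libraries at 30 °C, and 22.3 ± 2.55 and 13.1 ± 3.95 at 22 °C. The 30 °C groups overlapped because Cre-labelled library 2 stood at 32.2, against 64.6 to 67.7 in the other 3. The log2 difference at 30 °C was 1.01 (SE 0.28, adjusted p = 0.0232), lost without Cre-labelled library 1, 3 or 4 or control library 2 or 3 at 30 °C (adjusted p up to 0.077). At 22 °C it was 0.76 without overlap (adjusted p = 0.0904). At 30 °C relative to 22 °C Abcg3 was higher by 1.27 in Cre-labelled (adjusted p = 0.00214) and by 1.02 in control libraries (adjusted p = 0.0066). With the macrophage score in the model its genotype difference at 30 °C was 0.38 (adjusted p = 0.685). Abcg4, a sterol exporter of neural cells, averaged 18.3 ± 5.68 in Cre-labelled and 11.9 ± 5.18 in control libraries at 30 °C, and 19.8 ± 5.83 and 4.52 ± 2.09 at 22 °C. It was higher in Cre-labelled fat at 22 °C without overlap (1.95, SE 0.36, adjusted p = 0.00249), and higher at 30 °C in controls (1.21, adjusted p = 0.0123; with quantile normalization 0.37, adjusted p = 0.453). Abca4, the retinoid transporter of photoreceptors, averaged 28.1 ± 10.6 in Cre-labelled and 11.3 ± 4.55 in control libraries at 30 °C, and 18.6 ± 3.65 and 5.56 ± 4.54 at 22 °C. At 30 °C its groups did not overlap and differed by 1.24 (adjusted p = 0.184). Of its 22 °C controls, 1 was listed at 0. Without that library, control library 1, the difference at 22 °C was 1.28, against 2.03 (adjusted p = 0.0336) with it. The call was lost without Cre-labelled library 1, 3 or 4 or control library 3 (adjusted p up to 0.0832). Abca12, a lipid transporter of skin, was lower at 30 °C in controls, at 86.7 ± 7.60 against 120.2 ± 14.1 at 22 °C (-0.46, adjusted p = 0.0139), but stood at -0.07 with rescaling to the same total (adjusted p = 0.721) and at -0.16 with the macrophage score (adjusted p = 0.711).

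None of the members that act in translation passed between Cre-labelled and control libraries. Each Abcf member was lower at 30 °C past the threshold in a single label. Their limma interactions did not pass, at -0.04 for Abcf1 (adjusted p = 0.947), 0.14 for Abcf2 (adjusted p = 0.869) and 0.13 for Abcf3 (adjusted p = 0.835). No difference between the labels was thus shown. Abce1, which splits ribosomes after termination, averaged 986 to 1241 in the 4 groups and passed in no comparison, with log2 differences between -0.20 and -0.14. Abcf1, a partner of the initiation factor eIF2, was lower at 30 °C in Cre-labelled libraries, at 1117 ± 103 against 1326 ± 29.8 at 22 °C (-0.25, adjusted p = 0.041). That call was lost without Cre-labelled library 1 or 4 or control library 1 or 4 at 30 °C or any Cre-labelled library at 22 °C (adjusted p up to 0.154). Abcf2 and Abcf3 were lower at 30 °C in controls by 0.49 (adjusted p = 0.00953) and 0.34 (adjusted p = 0.023). The Abcf3 call was lost without control library 1, 3 or 4 at 30 °C or 3 or 4 at 22 °C (adjusted p up to 0.0807). Rescaled to the same total, Abcf1 stood at 0.04 in Cre-labelled libraries, and in controls Abcf2 stood at -0.09 (adjusted p = 0.498) and Abcf3 at 0.05. Of 18 genes tested for ribosome recycling and eIF2 function, 1 was lower in Cre-labelled fat at 30 °C and none passed at 22 °C, where limma's unadjusted p was under 0.05 in 3355 of all genes tested. At 30 °C, 6 were lower in Cre-labelled libraries and 8 in controls, led in both by Denr, a recycling factor, which fell by 0.87 in Cre-labelled libraries and by 0.98 in controls. Over all genes tested, 17.7% and 22.7% were lower in these comparisons, and 6.85% in Cre-labelled fat at 30 °C.

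**Figure D5:**
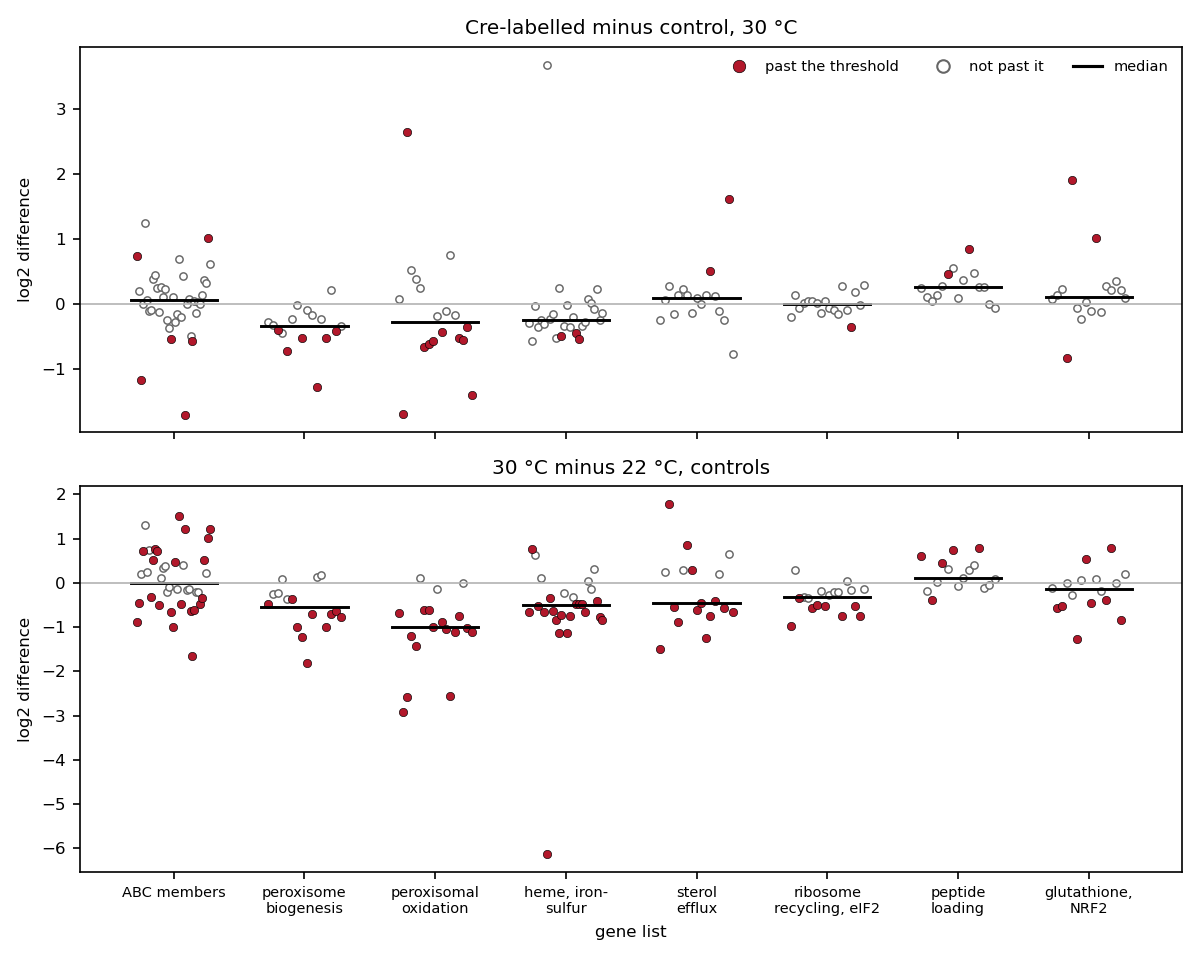
Log2 differences of single genes (points) and medians (bars) in the family and 7 related gene lists, for Cre-labelled minus control at 30 °C (top) and 30 minus 22 °C in controls (bottom); filled points have an adjusted p under 0.05. The peroxisome and heme lists lie mostly below 0 in both panels, while the 38 members spread around medians of 0.05 and 0.00.

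BCL6 peaks were listed near some members. Whether their share differs from that of all genes was not tested. The authors' list for Cre-negative brown fat holds 3022 peaks, and 4 of them had a member as the nearest gene, 1 each for Abcc4, Abca1, Abca7 and Abca3. Thus 4 of 38 members had a peak, against 14.2% of the 13176 genes tested, and 2 had one within 10000 bases of the start, against 7.75%. All 4 lay within 100000 bases, against 13.3%. The Abca1 peak lies at chr4:53146358-53146538 (mm10), in intron 1 of 49, 13447 bases downstream of the start, and ranked 222 by the authors' score (13.6, list median 5.18). The Abcc4 peak at chr14:118731153-118731333 is intergenic, 25024 bases upstream, and ranked 183 (score 15.2). The Abca7 peak at chr10:80003878-80004058 lies in intron 16 of 45, 6353 bases downstream (rank 1201, score 5.36), and the Abca3 peak at chr17:24354312-24354492 in intron 1 of 31, 2379 bases downstream (rank 1664, score 4.83). Of these 4 members, Abca1 alone differed by Cre label, being higher at 30 °C. Abcc4 differed between Cre-labelled and control libraries by -0.21 at 30 °C (adjusted p = 0.361) and -0.41 at 22 °C without overlap (adjusted p = 0.0594). Abca3 and Abca7 had genotype differences between -0.09 and 0.30. Abca2 and Abcd3, lower in Cre-labelled fat at both temperatures, were the nearest gene of no listed peak. The list is one set of peaks without replicates, and its scores serve only to rank peaks within it.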

How the data were processed

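Per the labels' protocols, stranded polyA libraries of whole interscapular brown fat were sequenced as single reads. The deposited table holds 1 signal value per gene and library, normalised counts that the authors made with kallisto and DESeq2 against mm10, per the submitters' processing notes; their versions and any filters are not stated there. Values were not whole multiples of a step, so whole reads were not recoverable and the raw depth stays unknown. All 16 libraries were matched by name, 0 columns were unused, no 2 were identical, and 14 gene entries without a symbol were kept. Library numbers come from the labels.

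Values were tested as log2(value + 1), which understates changes of low genes. For 13176 genes with a mean of at least 10, limma 3.58.1 (R 4.3.3) estimated the 4 group means from the 16 libraries together (empirical Bayes with a trend; residual and prior degrees of freedom 12 and 4.83). The 5 contrasts were tested two-sided, adjusted by Benjamini-Hochberg over all genes, with a threshold of 0.05. Fold changes and differences are on that log2 scale, first-named group minus second. The fit was tested on simulated data. Tables were joined in Python 3.11.15 with pandas 2.3.3.

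The peak list carries a score per peak as deposited by the authors, with HOMER annotation on mm10 per the file headers and Bowtie2 alignment per the submitters' processing notes. Its scale is not stated. Other ChIP samples were not analysed here. Gene limits and promoters come from RefSeq tables of GRCm38.p6, the build named mm10.

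Members and gene lists were chosen with earlier results of these data known. The counts cover all 38 members, and the values of 2 of them, which passed in no comparison, are not reported here. Other members may be named; every library's value is given for the 12 with the smallest adjusted p. From each other list up to 4 genes with the smallest adjusted p were eligible. The LXR motif was added after the Abca1 sequence was read. Alternatives changed the pseudocount, filter, scaling, trend, robust estimation, libraries fitted, replicate block, muscle or macrophage score, peak distance and score, and left out each library in turn.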

Additional observations from a re-analysis of the deposited data

Results flagged for a closer look

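Of 144 member-by-group sets of 4 libraries, 9 held a library far from the other 3 by the gap test at the 95% level (critical value 0.829), and chance alone flags about 1 in 20 sets. In Cre-labelled libraries at 30 °C this was Abcg3 in library 2, at 32.15 against 64.60 to 67.72. Among controls at 30 °C they were Abcb4 in library 3, at 120.8 against 89.32 to 92.66, Abcd4 in library 1, at 495.8 against 360.8 to 378.3, and Abcg1 in library 4, at 246.9 against 164.4 to 172.8. In Cre-labelled libraries at 22 °C they were Abcc5 in library 3, at 1148 against 631.8 to 714.0, and Abcc10 in library 2, at 434.9 against 813.8 to 867.0. Among controls at 22 °C they were Abca5 in library 4, at 92.02 against 106.7 to 109.7, Abcc10 in library 1, at 467.1 against 658.5 to 686.8, and Abcg3 in library 1, at 19.02 against 10.86 to 11.53. The 2 low values of Abcc10 belong to the 2 libraries with the fewest genes above 0. Abca2 also differed between temperatures in its response to the Cre label, by a limma interaction of -0.81 with an adjusted p of 0.0363. That call was lost under 14 of 28 alternatives, with adjusted p up to 0.0969.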

How the results depend on the processing

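Of 51 member calls over the 5 comparisons, 6 were kept under all 29 alternatives, 16 of which left out 1 library each: Abca1 and Abca2 at 30 °C, and Abca3, Abca8b, Abca9 and Abcd3 between temperatures in controls. Abcg4 at 22 °C was kept under the 28 run for it, since a minimum mean of 50 leaves it out. At least 1 alternative ended or reversed the call in 44. Quantile normalization ended 14 calls and the muscle score 8. With the macrophage score in the model, 2 members passed between Cre-labelled and control libraries at 30 °C and 2 at 22 °C, and between temperatures 0 passed in Cre-labelled libraries, where 5638 of all genes had an unadjusted limma p under 0.05 without the score, and 8 in controls. At 22 °C the count of 5 became 2 with a minimum mean of 50, 1 with quantile normalization, 1 with the 2 groups fitted alone and 11 without the 2 libraries with the fewest genes, an alternative chosen after seeing the data. The interaction count of 1 became 0 with no trend and with the muscle score, and 2 without those 2 libraries. Leaving out 1 library gave 4 to 8 members at 30 °C, 2 to 8 at 22 °C, 14 to 19 between temperatures in Cre-labelled libraries, 19 to 22 in controls and 0 to 1 for the interaction. Between temperatures in controls, Abca7 turned to 0.07 and Abcf3 to 0.05 with rescaling to the same total, and Abcd2 to 0.10 and Abcg1 to -0.21 with the macrophage score. In Cre-labelled libraries Abcf1 turned to 0.04 with rescaling, and with the macrophage score Abcd2 turned to 0.11, Abcf1 to 0.03 and Abcg1 to -0.04. Within 10000 bases of the start, 2 members had a peak. The cause of these changes was not tested. Over all genes, the counts between Cre-labelled and control libraries went to 293 at 30 °C and 638 at 22 °C with the macrophage score, against 1647 and 1344 without it, and to 56 in Cre-labelled libraries and 2377 in controls between temperatures, against 4314 and 5999. At 22 °C the groups fitted alone gave 525. The interaction count of 58 became 37 with no trend, 28 with the muscle score and 24 with the replicate block, and without the 2 libraries with the fewest genes the counts were 2795 at 30 °C, 2344 at 22 °C and 180 for the interaction.

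Library numbers showed no clear pairing of the samples: deviations of same-numbered libraries correlated between -0.48 and 0.171 over the 4 comparisons. With so few libraries per group, this cannot exclude a shared litter or shared handling. With the replicate block 6 members passed at 30 °C, 4 at 22 °C, 14 between temperatures in Cre-labelled libraries and 22 in controls, and 0 for the interaction, and 46 of the 51 calls were kept. The exact raw depth is unknown, and low members such as Abcg4, Abca4 and Abcc8 are the least precise.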
